A study of Homo sapiens with 4 samples.

Results

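The genes described here are 54 replication-dependent histone genes among the 20457 gene symbols listed for each library. They were taken by symbol, as all names beginning HIST1H to HIST4H, of which there were 61, without 7 genes whose mRNAs are known to be made with a poly(A) tail as well (HIST1H2BC, HIST1H2BD, HIST1H2BJ, HIST1H2BK, HIST2H2BE, HIST1H2AC and HIST1H1C). By the class in the symbol, 5 are genes of the linker histone H1, 13 of H2A, 14 of H2B, 11 of H3 and 11 of H4. The longest transcript model of HIST2H2BA, HIST2H2BC and HIST1H3J was typed as a processed transcript and not as protein coding. Whether these members encode a histone was not tested, and they are counted in their class throughout. H3 and H4 pair to form the centre of the nucleosome, H2A and H2B pair on either side of it, and H1 binds the DNA between nucleosomes. Most of these genes have no introns, lie in clusters and are transcribed mainly in S phase, when new DNA has to be packed. Their mRNAs usually end not in a poly(A) tail but in a short stem-loop, which is bound by SLBP and marks where the transcript is cut. A library selected for poly(A) RNA therefore holds little of this mRNA, and mostly what carries a tail.

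The samples were cultures of HEK293, an established human embryonic kidney cell line. In the siControl group (genotype labelled WT) the cells received a negative control siRNA, and in the siCNOT4 group (genotype labelled CNOT4 knockdown) an siRNA against CNOT4, which encodes an E3 ubiquitin ligase named for its link to the CCR4-NOT complex, the main enzyme that shortens poly(A) tails. The siRNA was at 10 nM for 72 h in both groups, and each group had 2 libraries, made with a stranded kit from poly(A) RNA. The study set out to examine CNOT4 in relation to codon usage and gene expression. The labels do not say whether the libraries of a group came from separate cultures, so the p-values measure the spread between these libraries, which may be technical.

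CNOT4 itself was at 6.43 and 4.73 TPM (a length-normalised level that sums to 1000000 in each library) in siControl and at 3.38 and 3.81 TPM in siCNOT4. Its siCNOT4 values lay below both values of siControl. The log2 fold change was -0.51 (SE 0.26), with an adjusted p of 0.184 in limma, so the reduction did not pass the threshold of 0.05. The libraries held 25405873 to 28457281 reads assigned to genes, as recovered from the TPM values. Most features were higher in siCNOT4: the median log2 fold change over the 14208 features tested was 0.50, and it was -0.02 after TMM scaling (trimmed mean of M-values). The library siControl 2 stood apart, with a TMM factor of 0.704 against 0.95 in siControl 1, 1.21 in siCNOT4 1 and 1.24 in siCNOT4 2. Without it the median over all features was 0.29, and without siControl 1 it was 0.71. Of 8 HEK293 marker genes, 7 were at 1 TPM or more in every library, and 4 of 4 blood and 3 of 3 hepatocyte markers stayed under 1 TPM. The 4 fibroblast markers summed to 1.62 and 1.13 TPM in siControl and to 9.08 and 9.49 TPM in siCNOT4, most of it COL1A1 and LUM. COL1A2 was near 0 throughout, at 0.0143 and 0 TPM in siControl and at 0.0150 and 0.0152 TPM in siCNOT4. The part of these markers in the results below was not tested.

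The stem-loop ends of 12 members are shown because all classes but H1 can be compared in them and because they come from members that rose and members that did not. Each is written 5′ to 3′ in the sense of the mRNA, as DNA, with the stem-loop in capitals and 5 bases on either side in lower case (GENCODE 29 transcripts, GRCh38).
HIST1H3H: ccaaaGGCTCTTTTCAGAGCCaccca
HIST1H4H: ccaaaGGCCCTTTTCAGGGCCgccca
HIST1H4I: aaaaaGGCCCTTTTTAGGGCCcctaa
HIST1H4E: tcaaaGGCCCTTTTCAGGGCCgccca
HIST1H2AI: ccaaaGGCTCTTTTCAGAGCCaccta
HIST1H2AG: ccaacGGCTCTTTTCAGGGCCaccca
HIST1H2AE: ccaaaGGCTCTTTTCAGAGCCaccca
HIST3H2A: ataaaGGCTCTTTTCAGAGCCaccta
HIST1H2BG: tcaaaGGCTCTTTTCAGAGCCactca
HIST1H2BH: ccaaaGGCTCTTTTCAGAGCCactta
HIST1H2BF: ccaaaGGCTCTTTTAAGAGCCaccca
HIST1H2BL: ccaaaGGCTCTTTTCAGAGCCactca

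The motif searched, on the sense strand alone, was 16 bases long and read GG, any 2 bases, CTTTT, any base, AG, any 2 bases and CC. It was present in 80 of 57133 GENCODE genes (0.14%), and 34 of those genes had a HIST symbol. Among the members, 21 of 54 had it in a transcript model. Many models of the others hold little beyond the coding sequence, so a missing match says only that these letters are not in the model. The H4 genes shared a form of the stem not seen in H2A, H2B or H3: 5 of the 6 H4 members with a match read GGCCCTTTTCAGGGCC. In H2B, 7 of 9 read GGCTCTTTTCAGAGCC, as did 3 of 4 in H2A and 1 of 2 in H3. The same 16 bases stood in HIST1H2AI, HIST1H2BG and HIST1H3H, which rose, and in HIST3H2A and HIST1H2BL, which did not pass the test.

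More histone genes were detected in siCNOT4 than in siControl. Members with a TPM above 0 numbered 38 and 36 of 54 in siControl and 46 and 43 in siCNOT4. At 1 TPM or more they numbered 15 and 14 in siControl and 25 and 25 in siCNOT4. The siControl and siCNOT4 counts did not overlap at either level. Over all 20457 features, 17661 and 17531 were above 0 in siControl and 18667 and 18629 in siCNOT4. At 1 TPM or more there were 13724 and 13262 in siControl and 14543 and 14625 in siCNOT4, so detection was higher across the tables as well, and no test was made of the members' counts. In bulk samples, more cells with such RNA and more RNA per cell cannot be told apart.

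By class, the counts are given at both levels, and differences between classes were not tested. Of the 11 H3 genes, 5 and 3 were above 0 in siControl and 9 and 7 in siCNOT4, while 2 and 3 against 3 and 3 reached 1 TPM. Of the 11 H4 genes, 8 and 10 were above 0 in siControl and 10 and 8 in siCNOT4, while 2 and 3 against 5 and 5 reached 1 TPM. H3 was thus separated between the groups only at the lower level and H4 only at the higher. Of the 13 H2A genes, 10 and 9 were above 0 in siControl and 10 and 10 in siCNOT4, while 6 and 4 against 8 and 7 reached 1 TPM. Of the 14 H2B genes, 11 and 12 were above 0 in siControl and 13 and 14 in siCNOT4, while 4 and 3 against 8 and 9 reached 1 TPM. H2B was separated at both levels and H2A only at the higher. The counts over all features, given above, were separated at both levels as well. Of the 5 H1 genes, 4 and 2 were above 0 in siControl and 4 and 4 in siCNOT4, and 1 reached 1 TPM in every library.

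Whole reads could be recovered from the steps of the TPM values, and they show how thin this signal was. All members together held 488 and 436 reads in siControl and 957 and 1103 in siCNOT4. By class, H2A held 251, 234, 404 and 399 reads in siControl 1, siControl 2, siCNOT4 1 and siCNOT4 2, and H1 only 19, 17, 25 and 23. In that order, H2B held 107, 67, 221 and 269 reads, H3 held 74, 75, 210 and 284, and H4 held 37, 43, 97 and 128. Each of the 5 classes thus had more reads in both siCNOT4 libraries than in either siControl library. The totals over all features were higher in siCNOT4 as well, at 28457281 and 28179572 reads against 27136979 and 25405873 in siControl. There were 33 members with 10 reads or fewer in every library. The grid of recovered reads shows each member in each library.

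**Figure D1:**
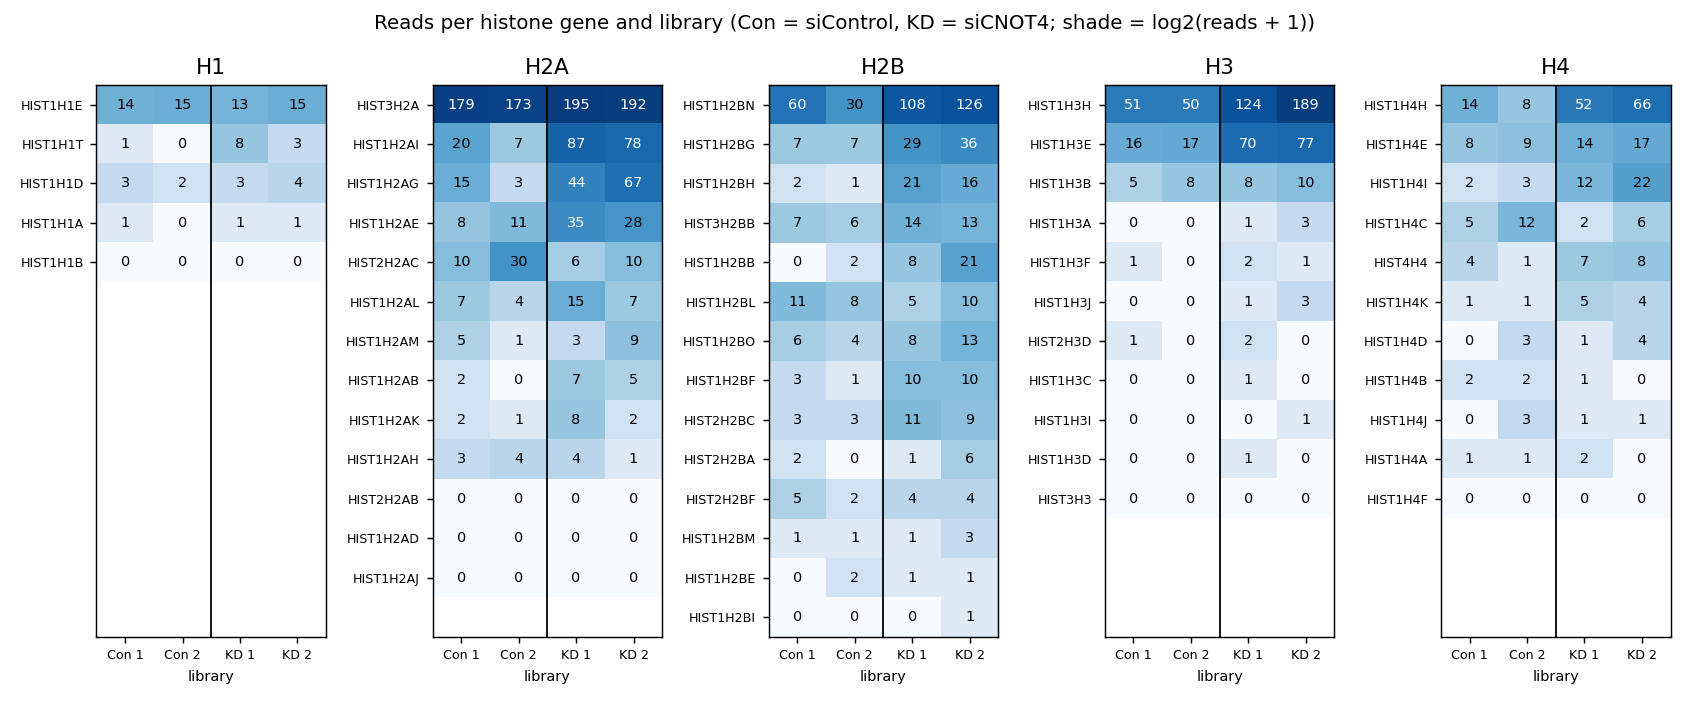
Recovered reads of each of the 54 members (rows, by class and falling mean TPM) in the 4 libraries (columns; Con is siControl, KD is siCNOT4), with the number in each cell and shading by log2(reads + 1). A few members hold most reads of each class, such as HIST1H3H with 51, 50, 124 and 189 reads, and 33 members have 10 reads or fewer in every library.

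No read was assigned to 6 members in any library: HIST1H1B, HIST1H2AD, HIST1H2AJ, HIST2H2AB, HIST3H3 and HIST1H4F. A count of 0 allows up to 3 reads, and for genes of the median counted length 3 reads were worth 0.426 to 0.663 TPM in the core histone classes and 0.262 to 0.316 TPM in H1. The limit of 3 reads is one-sided, and it covers counting error only. Reads from HIST1H2AD and HIST1H2AJ may not have been assignable, since 98% and 83.7% of their 50-base stretches also occur in other genes' transcripts. Most were shared with AL031777.3 and HIST1H2AI, respectively. The search compared transcript models, so a model overlapping the same place in the genome also counts as shared. Another 6 members had reads in siCNOT4 only: HIST1H3A, HIST1H3C, HIST1H3D, HIST1H3I, HIST1H3J and HIST1H2BI. Of these 6, 5 were H3 genes, and each had 1 to 3 reads in a library where it was seen. A difference between the groups was thus not detectable at this depth for them. The share of all features seen in siCNOT4 only was not counted. Over all features, 17661 and 17531 were above 0 in siControl and 18667 and 18629 in siCNOT4. Of the other members, 12 were found in 2 or 3 libraries, with both groups among them, and 30 in all 4.

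Of the 54 members, 22 had a mean of at least 1 TPM over the 4 libraries and were tested, and 32 fell below this filter. Among the 22, 11 were called higher in siCNOT4 by limma on log2(TPM + 1) at an adjusted p under 0.05, and 0 were called lower. Over all features tested, 11.3% were called higher and 1.3% lower. At an unadjusted p under 0.05, 15 members were higher and 0 lower, against 38% and 4% of all features. Both siCNOT4 libraries lay above both siControl libraries for 18 of the 22, against 66.4% of all features, and below them for 0, against 10.6%. The median log2 fold change of the 22 was 1.22 and that of all features 0.50. With no filter on low values, the median over the 48 members with any reads was 0.42 and that of all features 0.35. Members could pass the filter through their siCNOT4 values alone, so these counts describe the 22 and not the 54. With siControl means under 1 TPM, the called HIST1H2BB, HIST1H2BF, HIST1H2BH and HIST1H4I did so. The uncalled HIST1H3B, HIST1H2AL and HIST1H2BO did so too. At the filter's edge, HIST1H2BF (mean 1.12 TPM) and HIST1H4C (1.19 TPM) were just inside, and HIST4H4 (0.971 TPM) and HIST2H2BC (0.887 TPM) just outside.

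Scaling changed the number but not the direction of these calls. After TMM scaling 8 of the 11 were still called higher, against 4.3% of all features. After quantile normalization 7 of the 11 were, with HIST1H2BN in addition, against 7.22%. With limma voom on the recovered reads 5 were: HIST1H2AI, HIST1H4H, HIST1H3E, HIST1H2BG and HIST1H2BH, against 5.38%. No member was called lower in these 3 fits, against 5.59%, 8.09% and 7.17% of all features. Of the other settings, a pseudocount of 0.1 left 7 of the 11 (against 3.36% of all features) and a mean of at least 5 TPM left 2, HIST1H3E and HIST1H4H (0.957%). Without siControl 2, all 11 were called with 3 others, against 47.2% of all features. Without siControl 1, all 11 were called with 6 others, against 70.9%, and HIST2H2AC was called lower, against 8.73%. Without siCNOT4 1 there were 8 of the 11 (3.09%), and without siCNOT4 2 there were 9 (2.91%). With the replicate number as a block, all 11 and 3 others were called, against 23.5%. HIST1H2BG and HIST1H2BH were called in each of the 12 fits but the one limited to a mean of at least 5 TPM, which left them out.

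Of the H3 genes, 3 were tested and 2 rose. HIST1H3H was at 8.32 and 7.19 TPM in siControl and at 21.2 and 32.8 TPM in siCNOT4, from 51, 50, 124 and 189 reads. It was the most abundant H3 member in every library, and its groups did not overlap. It rose by a log2 fold change of 1.65 (SE 0.31, adjusted p = 0.0336 in limma), from 7.75 ± 0.802 to 27.0 ± 8.15 TPM (SD, n = 2). The call was lost with voom (adjusted p = 0.0579), no filter (0.058) and a mean of at least 5 TPM (0.0564). HIST1H3E was at 2.67 and 2.5 TPM in siControl and at 12.3 and 13.7 TPM in siCNOT4. Its replicates lay close together in both groups, and its siCNOT4 level was 5.01 times that of siControl (log2 fold change 1.96, SE 0.26, adjusted p = 0.023). HIST1H3B was at 0.817 and 1.15 TPM in siControl and at 1.37 and 1.74 TPM in siCNOT4, from 5 to 10 reads a library. It did not pass the test (0.37, SE 0.19, adjusted p = 0.182). Without siCNOT4 1 or siCNOT4 2 the lone library left is assumed to vary like siControl, and neither H3 gene was then called. HIST1H3E kept log2 fold changes of 2.03 and 1.89 (adjusted p = 0.0595 and 0.0876), and HIST1H3H had 1.95 and 1.35 (adjusted p = 0.142 and 0.395).

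Of the H4 genes, 4 were tested and 2 rose. Among these 2, HIST1H4I passed the filter only through its siCNOT4 values. Most H4 genes encode an identical protein from mRNAs of different sequence. HIST1H4H was at 2.89 and 1.45 TPM in siControl and at 11.3 and 14.5 TPM in siCNOT4, from 14, 8, 52 and 66 reads. It had the highest mean of the H4 members and rose by 2.16 on the log2 scale (SE 0.33, adjusted p = 0.0254). With no filter it was not called (adjusted p = 0.0519). HIST1H4I was at 0.417 and 0.551 TPM in siControl, from 2 and 3 reads, and at 2.63 and 4.88 TPM in siCNOT4, from 12 and 22 reads. It rose too (1.64, SE 0.27, adjusted p = 0.0272). The call was lost in quantile normalization (adjusted p = 0.0553), with voom (0.0665) and with no filter (0.056). HIST1H4E was at 1.64 and 1.62 TPM in siControl and at 3.01 and 3.70 TPM in siCNOT4. The groups did not overlap, and the adjusted p was 0.0648 (0.72, SE 0.21). HIST1H4C went against the others, at 0.989 and 2.09 TPM in siControl and at 0.416 and 1.26 TPM in siCNOT4. From 2 to 12 reads a library its groups overlapped (-0.47, SE 0.31, adjusted p = 0.269).

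Of the H2A genes, 6 were tested and 3 rose. HIST1H2AI was at 3.29 and 1.01 TPM in siControl and at 15.0 and 13.6 TPM in siCNOT4, from 20, 7, 87 and 78 reads. It rose by 2.38 on the log2(TPM + 1) scale (SE 0.40, adjusted p = 0.0285). The call was lost with a pseudocount of 0.1 (adjusted p = 0.0519), no filter (0.06) and a mean of at least 5 TPM (0.0511). The siControl libraries differed widely from each other, and both lay far below siCNOT4. Of its transcript's 50-base stretches, 62.3% also occur in another gene's transcript, most in HIST1H2AJ, so the assignment of its reads is uncertain. HIST1H2AG was at 2.32 and 0.410 TPM in siControl and at 7.16 and 11 TPM in siCNOT4. It rose by 2.19 (SE 0.45, adjusted p = 0.0393). The call was lost after TMM scaling (adjusted p = 0.0514) and with voom (0.0556). It was also lost with a pseudocount of 0.1 (0.0661), no filter (0.0786) and a mean of at least 5 TPM (0.0599). HIST1H2AE was at 1.09 and 1.33 TPM in siControl and at 5.03 and 4.07 TPM in siCNOT4. It rose by 1.32 (SE 0.22, adjusted p = 0.028). The call was lost after TMM scaling (adjusted p = 0.0561), quantile normalization (0.0911), voom (0.085) and with no filter (0.0504). Without siCNOT4 1, which leaves a lone siCNOT4 library, HIST1H2AE was not called either, at a log2 fold change of 1.20.

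HIST3H2A, from the small cluster on chromosome 1, had the highest mean TPM of all members and showed a smaller difference. It was at 27.8 and 23.7 TPM in siControl and at 31.9 and 31.7 TPM in siCNOT4, from 179, 173, 195 and 192 reads. The groups did not overlap, but the log2 fold change of 0.30 (SE 0.22, adjusted p = 0.321) was below the median of all features, and it was -0.26 after TMM scaling. HIST2H2AC was the member with the lowest fold change. It was at 1.77 and 4.67 TPM in siControl and at 1.11 and 1.88 TPM in siCNOT4 (-0.68, SE 0.37, adjusted p = 0.20). Its siCNOT4 libraries overlapped siControl 1, and it was called lower (adjusted p = 0.00322) only when siControl 1 was left out. Of its 50-base stretches 30.5% also occur in another gene, most in HIST2H2AA3. HIST1H2AL, at 1.15 and 0.579 TPM in siControl and 2.59 and 1.22 TPM in siCNOT4, did not pass the test (adjusted p = 0.15).

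Of the H2B genes, 8 were tested and 4 rose. Among these 4, HIST1H2BF, HIST1H2BH and HIST1H2BB passed the filter only through their siCNOT4 values. HIST1H2BG was at 1.21 and 1.07 TPM in siControl and at 5.28 and 6.63 TPM in siCNOT4. It rose by 1.69 (SE 0.23, adjusted p = 0.0234), from 1.14 ± 0.102 to 5.96 ± 0.957 TPM. HIST1H2BF was at 0.538 and 0.158 TPM in siControl and at 1.88 and 1.91 TPM in siCNOT4. It rose by 1.12 (SE 0.19, adjusted p = 0.0299) and was not called after quantile normalization (adjusted p = 0.0793). Nor was it called with voom (0.0823), a pseudocount of 0.1 (0.0581) or no filter (0.0502). HIST1H2BF stood on 3 and 1 reads in siControl and 10 and 10 in siCNOT4.

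The other two H2B genes that rose were close to absent in siControl. HIST1H2BH was at 0.363 and 0.160 TPM in siControl, from 2 and 1 reads, and at 4.0 and 3.09 TPM in siCNOT4, from 21 and 16 reads. The level from the pooled reads was 13.9 times higher in siCNOT4, with a counting interval (95%) of 4.40 to 70.5, and limma gave a log2 fold change of 1.85 (SE 0.20, adjusted p = 0.0227). HIST1H2BB was listed at 0 and at 0.315 TPM in siControl, from 0 and 2 reads, and at 1.5 and 4.0 TPM in siCNOT4, from 8 and 21 reads. Its pooled reads gave a ratio of 16.4, with an interval of 4.14 to 141 (limma log2 fold change 1.62, SE 0.34, adjusted p = 0.0417). That call was lost after TMM scaling (adjusted p = 0.0665), quantile normalization (0.0858), voom (0.0808), a pseudocount of 0.1 (0.0581) and no filter (0.0795). With a pseudocount of 1, the limma fold changes of such low genes understate the ratios of their levels. Both intervals cover counting error only and not the spread between libraries. As HIST1H2BH and HIST1H2BB passed the filter only through their siCNOT4 values, high ratios were selected for.

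HIST1H2BN, the most abundant H2B member, was at 10.3 and 4.54 TPM in siControl and at 19.5 and 23.0 TPM in siCNOT4, from 60, 30, 108 and 126 reads. Its groups did not overlap, and the spread between the siControl libraries left it above the threshold (1.49, SE 0.39, adjusted p = 0.0561). After quantile normalization it passed (adjusted p = 0.0453). HIST3H2BB, at 1.20, 0.902, 2.51 and 2.36 TPM in the same order, missed it narrowly (adjusted p = 0.0522). HIST1H2BO was higher in both siCNOT4 libraries as well and did not pass (0.66, SE 0.23, adjusted p = 0.0886). HIST1H2BL, at 1.87 and 1.20 TPM in siControl and 0.894 and 1.81 TPM in siCNOT4, overlapped between the groups (-0.12, SE 0.26, adjusted p = 0.726).

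H1 differed from the core classes in that only HIST1H1E could be tested. It was at 1.38 and 1.30 TPM in siControl and at 1.34 and 1.57 TPM in siCNOT4, from 13 to 15 reads a library. The groups overlapped (0.07, SE 0.18, adjusted p = 0.774), and the 95% interval of the pooled-read ratio ran from 0.624 to 1.90. HIST1H1T, a testis-type linker histone, had 1 and 0 reads in siControl and 8 and 3 in siCNOT4. HIST1H1D had 3 and 2 reads in siControl and 3 and 4 in siCNOT4, and HIST1H1A had at most 1 read in any library. A test of H1 against the core classes was not made.

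**Figure D2:**
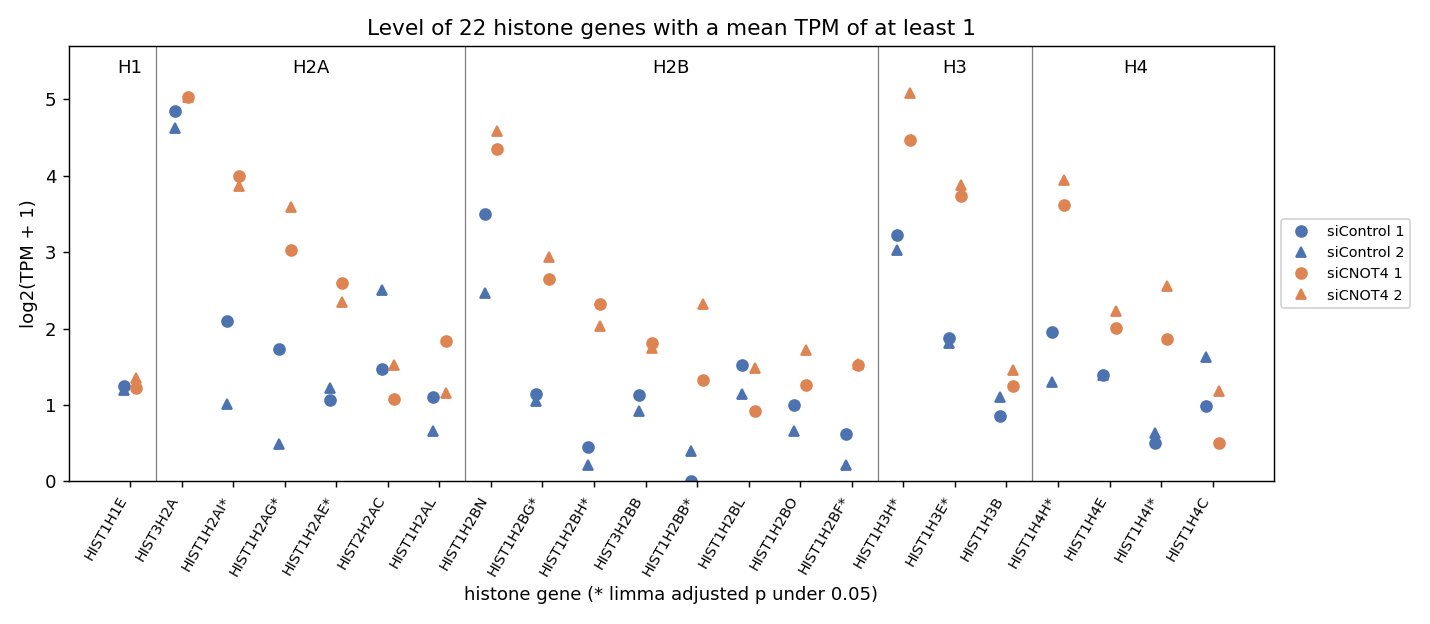
Level of the 22 tested members as log2(TPM + 1), grouped by class, with siControl in blue and siCNOT4 in orange, a circle for library 1 and a triangle for library 2. An asterisk marks the 11 members with a limma adjusted p under 0.05; both siCNOT4 points lie above both siControl points for 18 of the 22, and HIST3H2A has the highest siControl levels.

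Of the 32 members below the filter, the 3 with the highest means were HIST4H4, HIST2H2BC and HIST1H2AM. HIST4H4, a lone H4 gene on chromosome 12, had 4 and 1 reads in siControl and 7 and 8 in siCNOT4. HIST2H2BC, whose longest model is typed as a processed transcript, had 3 and 3 reads in siControl and 11 and 9 in siCNOT4. HIST1H2AM had 5 and 1 reads in siControl and 3 and 9 in siCNOT4, and its groups overlapped. When the filter was dropped, HIST2H2BC and HIST1H4K were called higher, but only 3 of the 11 calls remained, against 4.29% of all features called higher. All 50-base stretches of HIST1H4K (100%) also occur in another gene, most in HIST1H4J, so its reads cannot be placed by sequence of that length.

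**Figure D3:**
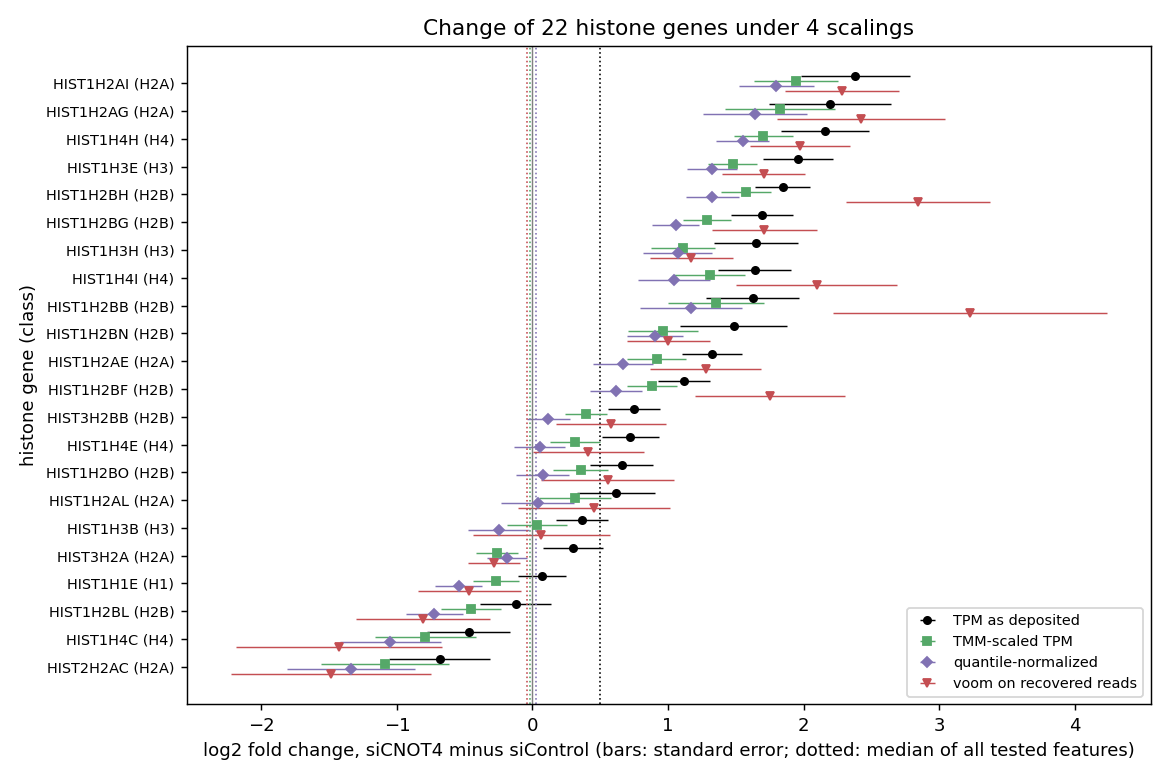
Log2 fold change (siCNOT4 minus siControl) of the 22 tested members with its standard error, for TPM as deposited, TMM-scaled TPM, quantile-normalized TPM and voom on recovered reads; dotted lines mark the median of all features tested. With TPM as deposited the values run from -0.68 for HIST2H2AC to 2.38 for HIST1H2AI, and HIST3H2A and HIST1H1E are above 0 with TPM as deposited and below 0 in the other 3 fits.

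Summed over their members, the core classes were higher in siCNOT4. The H3 genes summed to 12.1 and 10.8 TPM in siControl and to 36.2 and 49.6 TPM in siCNOT4, a ratio of 3.73. H4 summed to 7.54 and 7.77 TPM against 21.0 and 28.0 TPM, a ratio of 3.19, and H2B to 17.7 and 9.87 TPM against 39.3 and 48.5 TPM, a ratio of 3.18. H2A summed to 39.4 and 32.6 TPM in siControl and to 66.5 and 66.5 TPM in siCNOT4, a ratio of 1.85. HIST3H2A made up 56.2% of the H2A sum. H1 summed to 1.88 and 1.47 TPM against 2.65 and 2.43 TPM, a ratio of 1.52, which rested on 17 to 25 reads a library. With TPM as deposited, the groups were separated in each of the 5 classes by more than the gap between replicates. Of all single features tested, 66.4% also had both siCNOT4 libraries above both siControl libraries. After TMM scaling the ratios were 2.49 for H3, 2.11 for H4, 2.20 for H2B, 1.24 for H2A and 1.02 for H1. The H1 groups then overlapped, at 1.98 and 2.09 in siControl and 2.20 and 1.97 in siCNOT4. The order of the classes is a description of sums, was not tested and changed with the members summed. Without the most abundant member of each class the ratios were 4.25 for H3, 3.56 for H2B, 3.40 for H2A, 3.21 for H1 and 2.11 for H4. That H1 ratio rested on sums of 0.503 and 0.175 TPM in siControl and 1.31 and 0.867 TPM in siCNOT4. No H1 member in those sums had more than 8 reads in a library.

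**Figure D4:**
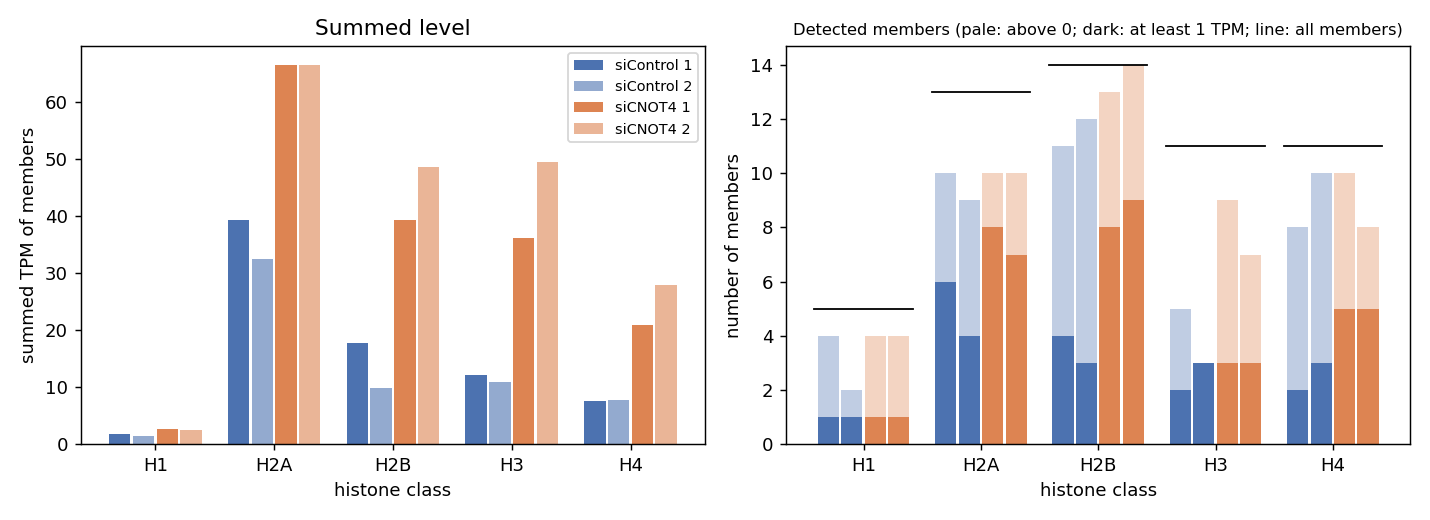
Left, summed TPM of each histone class in the 4 libraries, with siControl in blue and siCNOT4 in orange, library 2 in a paler shade. Right, number of members detected per library in the same order, pale for a TPM above 0 and dark for at least 1 TPM, with a line at the size of the class; H2B goes from 4 and 3 members at 1 TPM or more in siControl to 8 and 9 in siCNOT4.

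Members with a long transcript model passed the filter more often than the others. In GENCODE 29, 16 members had a model of 800 nt or more (895 to 6440 nt), and 12 of these were tested and 8 called. The other 38 had models of 312 to 754 nt, and 10 were tested and 3 called (HIST1H2BB, HIST1H2AE and HIST1H2AI). Over all features tested, 11.3% were called higher. In the long group, the called HIST1H2BF, HIST1H2BH and HIST1H4I passed the filter only through their siCNOT4 values. So did HIST1H2BB in the other group. The median of the mean TPM was 2.30 in the long-model members and 0.283 in the others. The letters AATAAA stood in the last 60 nt of the longest model in 9 of the 16 and in 1 of the 38. HIST3H2A, at 895 nt, was the shortest of the long group, and HIST1H1E, at 754 nt, the longest of the other. The model of 6440 nt was that of HIST2H2BC, typed as a processed transcript and not as protein coding. The length limit was chosen after the values were seen, and the contrast is a description only. The counted lengths recovered from the TPM steps were 354 to 1067 nt. In each of the 16 long-model members the counted part was shorter than the longest model, as in HIST3H2A with 496 of 895 nt.

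Neighbouring genes did not always move alike. H2A and H2B genes often lie head to head on opposite strands, and 10 such pairs were found among the histone genes. HIST1H2BG and HIST1H2AE both rose (log2 fold changes 1.69 and 1.32). HIST1H2AG rose by 2.19 beside HIST1H2BJ, one of the genes left out by the rule, at 2.61. HIST1H2AI (2.38) and its neighbour HIST1H2BL (-0.12) differed, as did HIST2H2AC (-0.68) and the left-out HIST2H2BE (0.96). HIST1H2AH, below the filter with a mean of 0.473 TPM, had a fold change of -0.12 in the fit with no filter, beside HIST1H2BK, the most abundant histone gene of the 61, at 1.27. The difference within a pair was not tested.

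The other genes of the histone pathway were counted in the same limma fit, in which 11.3% of all features were called higher and 1.3% lower. Of the 7 left-out histones, 6 were called higher (all but HIST2H2BE), with log2 fold changes from 0.99 for HIST1H1C to 2.72 for HIST1H2BC. Of 11 replication-independent histones tested, 1 was called higher and 1 lower. H1F0, a linker histone of non-dividing cells, was at 68.2 and 62.7 TPM in siControl and at 175 and 195 TPM in siCNOT4 (1.48, adjusted p = 0.0227). H2AFX, which is phosphorylated at DNA breaks, was at 144 and 179 TPM in siControl and at 66.4 and 73.8 TPM in siCNOT4 (-1.19, adjusted p = 0.0255). The H2AFX groups did not overlap, and no other histone gene of these lists was called lower in this fit.

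Of 17 genes for histone mRNA 3′ end processing, 0 were called in either direction by limma. At an unadjusted p under 0.05, 4 were higher and 2 lower, and with voom 0 were called higher and 1 lower. Over all features, 38% were higher and 4% lower at that unadjusted p, and voom called 5.38% higher and 7.17% lower. SLBP was at 136 and 145 TPM in siControl and at 108 and 115 TPM in siCNOT4, below siControl in both libraries, with an adjusted p of 0.154. Of 7 genes for histone gene transcription, 0 were called (2 higher at an unadjusted p under 0.05, and 0 in either direction with voom). Of 8 histone mRNA decay genes, 1 was called: DCP2, a decapping enzyme, was at 28.5 and 14.9 TPM in siControl and at 52.8 and 52.9 TPM in siCNOT4 (1.31, adjusted p = 0.0496), and it was not called after TMM scaling. At an unadjusted p under 0.05, 5 decay genes were higher and 0 lower, and voom called 0. With the replicate block, 5 decay genes were called higher, against 23.5% of all features. Of 24 S phase genes, 1 was called: CDC6, which loads the replicative helicase, was at 110 and 89.5 TPM in siControl and at 201 and 213 TPM in siCNOT4 (1.05, adjusted p = 0.0268), and it was not called higher after TMM scaling. At an unadjusted p under 0.05, 8 of the 24 S phase genes were higher and 0 lower, against 38% and 4% of all features. Of the 24, voom called 0 higher and 2 lower, against 5.38% and 7.17%. The median S phase gene was 0.24 below the median of all features on the log2 scale, though 0.11 above it after quantile normalization. The median histone member tested was 0.72 above the median of all features, 0.92 above it after TMM scaling and 0.62 above it after quantile normalization. Over the 48 members with any reads, in the fit with no filter, it was 0.06 above it.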

How the data were processed

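The authors deposited 1 table of TPM values per library, in which TPM sums to 1000000. Per the submitters' processing notes, FastQC 0.11.2, STAR 2.5.3a, featureCounts and the build hg19 were used; the annotation, strand setting and treatment of reads with several matches are not given in the sources used here. Titles gave the groups. Tests used log2(TPM + 1), so a fold change is on that scale and understates the change of low genes. The 14208 features averaging 1 TPM or more were compared with limma 3.58.1 (R 4.3.3; lmFit, eBayes with a trend; 2 libraries against 2, no covariates), with Benjamini-Hochberg adjustment over all of them and a threshold of 0.05. The procedure was tested on simulated data.

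Low TPM values are whole multiples of what 1 read is worth. Whole reads, within 0.002 reads, were recovered for 19733 of the 19734 features above 0 (99.995%). For 975 features they were multiplied by a whole factor, so that the implied counted length was a whole number of nt. For histone genes this length also had to reach a minimum coding length assumed for the class. The factor was 6 for HIST1H2BN and 2 for HIST1H4H and HIST2H2AC, so their printed reads rest on this assumption. The labels do not say whether the recovered counts are reads or read pairs. voom on these reads called 1784 features. Intervals are exact at 95% and cover counting error only.

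Each member with a mean of at least 1 TPM could be named. Values in each library are given for the called members, the 3 most abundant of each class and the 3 highest below the filter, and companion lists name their called genes. SLBP, HIST2H2BE, COL1A1, COL1A2, LUM and the lower H1 genes were named after their values were seen. The members and lists were chosen with earlier results of these data known. Sequences and neighbours come from GENCODE 29 (GRCh38), and coordinates were not used because the builds differ. Alternatives were another pseudocount, other filters, TMM and quantile scaling, a replicate block, class sums without members of shared sequence, and leaving out each library. The voom fit and the class sums without the most abundant member or after TMM scaling were added after seeing the data.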

Additional observations from a re-analysis of the deposited data

How the results depend on the processing

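With 2 libraries a group, few reads per histone gene and a shift of most features, the number of calls moved with the settings. Over all features, 1792 were called, against 147 with a mean of at least 5 TPM, 908 with no filter, 558 with a pseudocount of 0.1 and 450 to 11311 with a library left out. The split of higher and lower calls was 1608 and 184, against 611 and 794 after TMM scaling, 1026 and 1150 after quantile normalization and 765 and 1019 with voom. Of the members, 11 were called higher, against 2 with a mean of at least 5 TPM (7 tested), 5 with no filter, 7 with a pseudocount of 0.1, 5 with voom, and 8 to 17 with a library left out. The median of the members relative to all features was 0.72, against 0.06 with no filter (48 members), 1.13 with a pseudocount of 0.1, 1.12 with voom and 1.48 with a mean of at least 5 TPM. Companion genes called numbered 10, against 4 to 59 with a library left out. Class ratios moved to 3.21 for H1, from members of at most 8 reads a library, and to 3.40 for H2A without the most abundant member. They moved to 2.49 for H3 and 2.11 for H4 after TMM scaling, and to 2.11 for H4 without HIST1H4H. The direction reversed for members that were not called: HIST1H1E at -0.27 (TMM), -0.54 (quantile) and -0.47 (voom); HIST3H2A at -0.26, -0.19 and -0.28; HIST1H3B at -0.25 (quantile); and HIST1H2BL, which with a library left out ran from -0.41 (siCNOT4 2) to 0.07 (siControl 1) and 0.16 (siCNOT4 1), and was below 0 under every other setting. Where an alternative did not change the number of features or samples, the cause was not tested.

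The groups share replicate numbers only. The differences between libraries 1 and 2 correlated at 0.171 between the groups across 14208 features, with only 2 pairs. With the replicate block, 3655 features and 14 members were called, among them all 11, with HIST1H2BN, HIST1H2BO and HIST3H2BB in addition.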
